A study of Mus musculus with 19 samples.

Results

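The replication-dependent histone genes are the gene family that makes the bulk of the histone proteins packaged onto new DNA. They were taken here as every row of the raw gene count table whose mouse gene is annotated as protein coding and carries a symbol of the form H2ac, H2bc, H3c or H4c followed by a number, or H1f1 to H1f5. This gave 67 genes among the 56980 rows of the table: 5 linker histone H1 genes, 18 H2A genes, 19 H2B genes, 12 H3 genes and 13 H4 genes. Of these, 52 had enough counts to be tested, among 18739 tested genes of all kinds. The 15 that were not tested were 6 H2A genes, 5 H2B genes, 2 H3 genes and 2 H4 genes, none of which reached more than 97 counts over all libraries together, and 4 of them (H2ac24, H2bc1, H2bc23 and H3c14) had no count in any library.

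The counts came from 19 total RNA libraries of CD11b+ brain cells, a fraction dominated by microglia, the resident macrophages of the brain. The mice were males of 3 to 4 months, either knockouts (KO) for Park7, which encodes DJ-1, from a gene-trap line backcrossed to C57BL/6NCrl, or their wildtype (WT) littermates. Each mouse was injected intraperitoneally with lipopolysaccharide (LPS), a bacterial outer membrane component, at 4 µg per g body weight, or with the vehicle PBS, and perfused after 6 h. The groups were WT PBS with 4 mice, WT LPS with 5, KO PBS with 5 and KO LPS with 5, each mouse giving 1 library. In all 4 groups CD11b+ cells were enriched on magnetic columns from whole brain without olfactory bulb and cerebellum. The KO is present in all cells of the animal, so that a difference between genotypes need not arise in the sorted cells themselves.

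Core histones H2A, H2B, H3 and H4 form the protein spool of the nucleosome, and H1 binds the DNA where it enters and leaves that spool. In dividing cells most histone protein is made in S phase from small intronless genes that lie in clusters. Their mRNAs typically end in a conserved stem-loop instead of a poly(A) tail, and the stem-loop binding protein SLBP binds it and takes part in the processing, translation and decay of the message. Some of these genes also give longer polyadenylated transcripts that run past the stem-loop, and these are known from cells that no longer divide. Microglia of the healthy adult brain divide rarely. Because the libraries were made from total RNA after removal of ribosomal RNA, transcripts with and without a poly(A) tail were both counted, and the counts do not tell them apart.

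The stem-loop was found at the sequence level in nearly all members. A stem of paired arms around a loop of 4 bases lay within 100 bases of the stop codon in 62 of the 67 genes (92.5%), against 11 of 21589 other protein-coding genes (0.051%), among them the variant histone genes H2ax, H1f6, H3f4 and H2bw2. The search let the bases between the opening GG and the closing T of the first arm be either pyrimidine, and within these bounds 3 forms of the stem were found. The arms GGCTCT and AGAGCC were found in 49 genes, which were all 5 H1 genes, 17 H2A genes, 15 H2B genes and all 12 H3 genes. The arms GGCCCT and AGGGCC were found in 11 H4 genes and the arms GGTCCT and AGGACC in the other 2 H4 genes, so that the H4 genes differed from all other classes at the stem. No stem-loop was found in H2ac22, H2bc21, H2bc22, H2bc23 and H2bc24. The stem-loops of members on which the results below turn are given 5′ to 3′ on the gene's own strand in GRCm39 coordinates, with the arms of the stem in capitals and the loop and flanks in lower case.
H1f2, chr13:23923488-23923517, plus strand: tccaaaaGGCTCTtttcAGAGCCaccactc
H1f4, chr13:23805758-23805787, minus strand: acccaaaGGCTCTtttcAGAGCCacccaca
H2ac20, chr3:96127727-96127756, minus strand: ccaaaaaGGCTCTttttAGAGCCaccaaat
H2ac7, chr13:23759062-23759091, plus strand: aaacaaaGGCTCTtttcAGAGCCatccact
H2bc8, chr13:23756010-23756039, plus strand: acccaaaGGCTCTtttcAGAGCCacccata
H2bc7, chr13:23757932-23757961, minus strand: acccaaaGGCTCTtttcAGAGCCacctacc
H3c6, chr13:23746070-23746099, minus strand: ccaaaacGGCTCTtttaAGAGCCacctcca
H3c7, chr13:23729095-23729124, plus strand: ccaaaacGGCTCTtttaAGAGCCacctcca
H4c8, chr13:23715621-23715650, plus strand: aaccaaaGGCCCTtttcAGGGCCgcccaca
H4c14, chr3:96170248-96170277, minus strand: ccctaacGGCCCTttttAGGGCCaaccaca
The stretches of H3c6 and H3c7 were identical over these 30 bases, and among the lines shown the paired arms of the H1, H2A, H2B and H3 genes did not differ.

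The promoters also shared elements. RefSeq start-site windows in GRCm38.p6, from 250 bases before to 50 after each start, could be matched for 57 members and were compared with 26968 windows of other genes, each motif being searched on both strands. The TATA box TATAAA was present in 34 of the 57 windows (59.6%) and in 14.1% of the others. The motif CCAAT was present in 49 (86.0%) and in 37.8% of the others. The octamer element ATTTGCAT was present in 12 (21.1%) and in 1.71% of the others, and all 12 belonged to H2A genes (6 of 17) and H2B genes (6 of 14). CCAAT was found in all windows of the H1, H2A, H2B and H3 genes, but in 3 of 11 H4 windows. The windows of H2bc8, an H2B gene that fell after LPS, and H2ac20, the H2A gene with the highest level and no call after LPS, are shown because both hold all 3 elements, in capitals in either orientation.
H2bc8, chr13:23571150-23571449, plus strand: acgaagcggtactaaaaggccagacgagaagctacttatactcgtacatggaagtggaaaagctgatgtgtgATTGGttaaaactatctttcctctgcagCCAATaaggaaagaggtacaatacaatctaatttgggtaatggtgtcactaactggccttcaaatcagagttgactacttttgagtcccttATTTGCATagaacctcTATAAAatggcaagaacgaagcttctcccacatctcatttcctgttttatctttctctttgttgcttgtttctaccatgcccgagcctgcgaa
H2ac20, chr3:96220831-96221130, minus strand: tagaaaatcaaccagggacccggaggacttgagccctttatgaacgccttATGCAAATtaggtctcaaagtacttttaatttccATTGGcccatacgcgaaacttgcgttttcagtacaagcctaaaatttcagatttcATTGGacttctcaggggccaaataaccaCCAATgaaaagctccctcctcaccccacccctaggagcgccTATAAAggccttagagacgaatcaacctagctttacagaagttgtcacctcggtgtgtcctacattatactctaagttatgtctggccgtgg
In H2bc8 the TATA box began 43 bases and the octamer 59 bases before the start. In H2ac20 the TATA box began 42 bases before it, while the octamer lay in reverse 200 bases before it. A match of letters is a description of the window and was not tested as a binding site.

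The members lie close together, and this limits how well reads can be assigned to them. On GRCm39 chromosome 13 a first group of 23 genes lies between positions 21899933 and 22227846 and a second group of 30 between 23715220 and 24118834. A group of 10 lies on chromosome 3 between 96127181 and 96177448, 3 genes lie on chromosome 11 between 58838848 and 58847656, and H4c16 lies alone on chromosome 6. For a gene of median uniqueness among those tested, 67.1% of all 75-base stretches of its exons occurred at no other place in the genome, 75 bases being the read length. Under 25% of such stretches were unique in 7 of the 52 tested members and in 8 of the 15 that were not tested. How reads with several placements were counted is not given in the sources used here. Exons of another annotated gene overlapped 9 members on the same strand and 28 on the opposite strand, including all 18 H2A genes. H1f4 and H2bc6 share exonic bases on the same strand, and their values are uncertain to that extent.

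Library totals ranged from 11936364 to 22788884 counts with a median of 17211939. Park7 gave 20.6 to 32.1 CPM (counts scaled to a common library total) in the 9 WT libraries and 0.457 to 5.38 in the 10 KO libraries, in accordance with the labels. On a principal component analysis the first component (53.3% of the variance) separated LPS from PBS libraries. The libraries WT PBS replicate 1, KO LPS replicate 1 and KO LPS replicate 5 stood apart on the second (18.8%), and the member counts without them are given beside the results. All CPM are normalised by the trimmed mean of M values (TMM).

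The H1 and H4 members together made up most of the summed CPM of the 67 genes. Of the mean CPM of all members, summed over the 67 genes, H1 genes held 31.3%, H4 27.9%, H2B 15.9%, H3 15.7% and H2A 9.22%. These shares pool the treatments: H1 held more than H4 with PBS (34.8% against 27.7% in WT and 37.0% against 24.6% in KO), and H4 held more than H1 with LPS (30.3% against 24.2% in WT and 30.9% against 24.8% in KO). All of these shares are of CPM not divided by exon length, so that genes with long annotated exons weigh more. H1f3 has 7425 exonic bases and H1f4 1930, against 470 for H4c8. The order of the classes by CPM is therefore not an order per kb. H1f2 by itself held 16.5%, the top 3 genes held 31.5% and the top 10 held 60.2%. Within the H1 class 94.5% of the signal came from H1f2, H1f4 and H1f3, whereas in the H4 class the top 3 genes held 48.4%.

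Levels of different genes were compared as CPM per kb of annotated exon. The order of the genes differed between treatments. With PBS H1f2 was highest (47.2 ± 9.62 CPM per kb in WT, SD, n = 4, and 47.4 ± 4.96 in KO, n = 5) and H4c8 next (42.5 ± 9.29 and 38.7 ± 9.39), with overlapping libraries in both genotypes. They were followed by H2bc8 (22.8 ± 3.77 and 23.01 ± 2.25) and H2ac20 (22.8 ± 3.15 and 23.1 ± 3.54), which could not be separated by their SD. With LPS the highest gene was H3c6 in WT (24.1 ± 2.41 CPM per kb, n = 5) and H4c8 in KO (21.1 ± 5.92, n = 5). In WT LPS H4c8 (23.4 ± 5.72) and H2ac20 (22.9 ± 3.45) lay within the spread of H3c6, and H1f2 came after them with 18.05 ± 2.90. In KO LPS H2ac20 (18.6 ± 1.68), H3c6 (17.6 ± 4.23) and H1f2 (15.8 ± 4.65) lay within the spread of H4c8. These per-kb levels depend on the annotated ends. H1f3 is annotated with 7425 exonic bases and H2bc6 with 6150, against 470 for H4c8, and their levels per kb over all 19 libraries were 1.49 ± 0.749 and 1.90 ± 0.573.

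After LPS the summed signal of the 67 members was lower in every library than in any PBS library of the same genotype. The replication-independent histone genes, given further below, are not part of this sum, and H3f3b among them rose. The summed CPM of the 67 members was 376, 393, 336 and 426 in the WT PBS libraries and 272, 250, 250, 254 and 240 in the WT LPS libraries. In KO mice it was 395, 352, 312, 353 and 369 with PBS and 208, 186, 214, 236 and 211 with LPS. Neither pair of groups overlapped. The group means were 383 ± 37.2 and 253 ± 11.96 CPM in WT (SD, n = 4 and 5), a ratio of 0.662, and 356 ± 30.3 and 211 ± 17.9 CPM in KO (SD, n = 5 and 5), a ratio of 0.592. In bulk libraries fewer cells of a type and less RNA per cell cannot be told apart.

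The ratio of LPS to PBS was lowest for H1 and highest for H3. The H1 sum went from 134 ± 29.7 to 61.1 ± 4.57 CPM in WT, a ratio of 0.455, and from 132 ± 17.5 to 52.3 ± 8.76 CPM in KO, a ratio of 0.397. The H2B ratio was 0.636 in WT and 0.536 in KO, the H4 ratio 0.730 and 0.743, and the H2A ratio 0.747 and 0.689. The H3 sum was 48.7 ± 6.62 CPM in WT PBS and 51.5 ± 3.04 in WT LPS, a ratio of 1.06 with overlapping libraries, and 46.2 ± 4.78 against 40.1 ± 8.01 CPM in KO, a ratio of 0.869. Accordingly the share of H1 in the histone signal was 34.8% ± 4.52 with PBS and 24.2% ± 1.95 with LPS in WT, and 37.0% ± 3.82 and 24.8% ± 3.53 in KO. The share of H3 was 12.7% ± 0.856 and 20.4% ± 2.04 in WT, and 12.9% ± 0.369 and 18.995% ± 3.31 in KO. Each of these shares in LPS libraries lay entirely outside its range in PBS libraries of the same genotype.

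**Figure D1:**
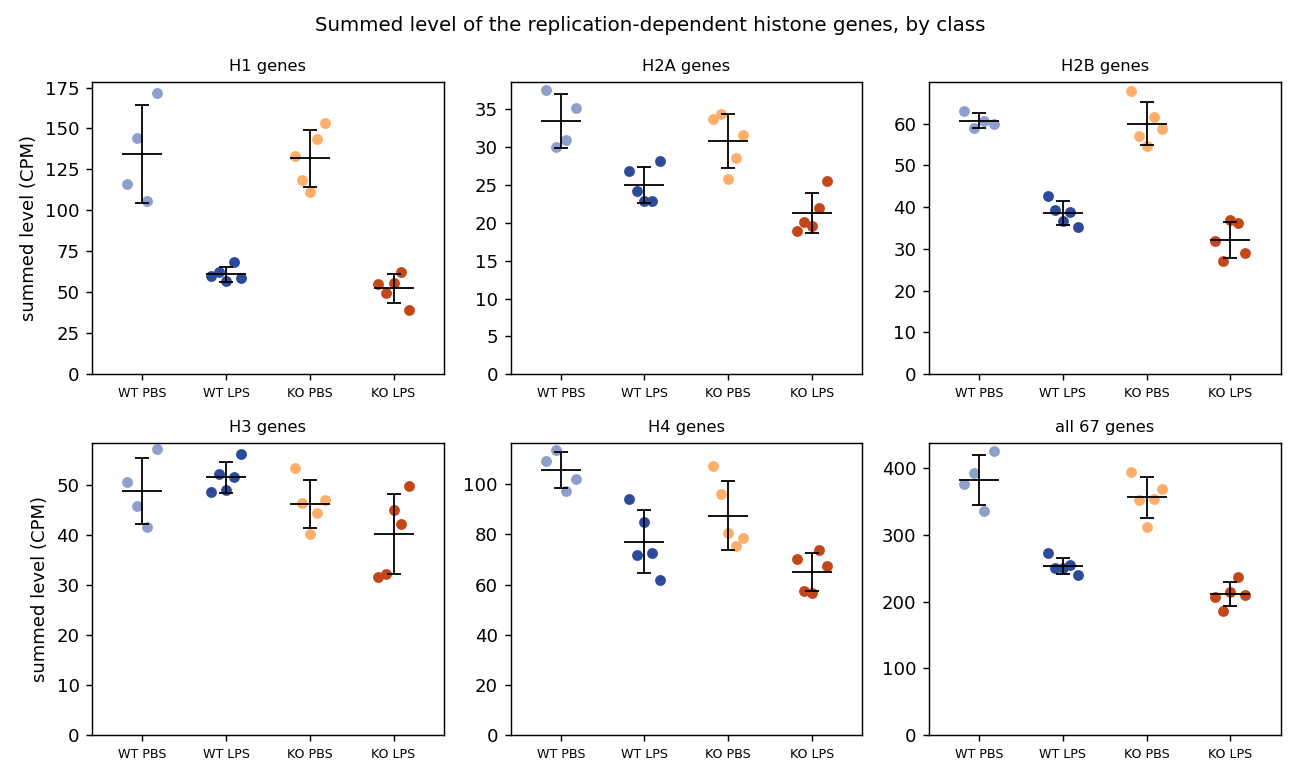
Summed CPM of the members of each histone class and of all 67 members (y axis, CPM, from 0) in each of the 19 libraries, grouped by genotype and treatment; points are libraries and bars are group means ± SD. H1 sums lay between 106 and 172 CPM with PBS and between 38.98 and 68.4 CPM with LPS, whereas the H3 sums of the treatments overlapped in both genotypes.

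In WT mice 17 of the 52 tested members fell after LPS and none rose, with a call set at an adjusted p under 0.05 and an absolute log2 fold change of at least 0.5. Among all 18739 tested genes 17.4% were called lower and 18.4% higher, while 32.7% of the tested members were called lower. At an unadjusted p under 0.05 edgeR gave 3 members higher and 21 lower, where 25% and 23.2% of all genes passed. DESeq2 called 1 higher and 18 lower, against 18.6% and 19% of all genes. In 15 members the WT groups did not overlap and LPS was the lower one, against 17% of all genes, and in 3 (H2ac10, H3c3 and H3c7) LPS was the higher one, against 20.8%. In KO mice 16 members (30.8%) fell and none rose, where 19% of all genes were called lower and 20.1% higher. At an unadjusted p under 0.05 edgeR gave 2 members higher and 23 lower in KO, where 26.9% and 25% of all genes passed. DESeq2 called 1 higher and 17 lower in KO, against 20.9% and 19.8% of all genes. The KO groups did not overlap in 12 members with LPS lower, against 16.6% of all genes, and in 0 with LPS higher, against 16.2%. The median log2 fold change of the tested members was −0.48 in WT and −0.52 in KO, and that of all tested genes was −0.06 and −0.01. Without the 3 libraries that stood apart, 13 members were called lower in WT and 16 in KO, while 2 (H3c2 and H3c7) were called higher in WT and 0 in KO.

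H1f2, the highest of the 5 H1 members, fell most clearly. Its level was 62.5, 80.2, 60.1 and 91.6 CPM with PBS and 24.6, 26.4, 26.5, 36.1 and 27.1 CPM with LPS in WT libraries. In KO libraries it was 73.2, 69.3, 64.3, 78.8 and 83.9 CPM with PBS and 27.3, 24.0, 28.1, 31.5 and 12.6 CPM with LPS. Every LPS library was below every PBS library in both genotypes, and the lowest value belonged to KO LPS replicate 5. The log2 fold change was −1.39 (SE 0.20, adjusted p = 1.44e-05) in WT and −1.58 (SE 0.19, adjusted p = 1.64e-06) in KO, by the quasi-likelihood test of edgeR, adjusted after Benjamini and Hochberg over all tested genes, as for all adjusted p-values below. H1f4, another linker histone, stood at 35.5, 44.6, 29.0 and 52.4 CPM in WT PBS and at 21.5, 23.4, 19.99, 19.4 and 18.1 CPM in WT LPS. In KO it stood at 38.4, 33.1, 28.3, 38.1 and 43.9 CPM and at 18.1, 18.2, 12.98, 16.3 and 16.5 CPM. H1f4 did not overlap between treatments either, with log2 fold changes of −0.98 (SE 0.16, adjusted p = 6.94e-05) and −1.15 (SE 0.15, adjusted p = 5.99e-06). H1f3 fell too, with log2 fold changes of −1.10 in WT (adjusted p = 0.000307) and −1.504 in KO (adjusted p = 6.02e-06). The other H1 members were low and not called: H1f1 had 3.02 CPM in WT PBS and 2.16 in WT LPS, and H1f5, named after its values were seen, had 1.92 and 3.10 CPM.

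Of 12 tested H2A genes 3 fell in each genotype, a count near the 17.4% and 19% of all tested genes called lower. H2ac25, from the chromosome 11 group, had 9.18, 4.79, 6.77 and 7.14 CPM in WT PBS and 3.64, 3.55, 2.65, 2.41 and 2.56 CPM in WT LPS, groups that did not overlap. In KO it had 6.57, 5.87, 5.23, 4.24 and 7.18 CPM with PBS and 4.27, 2.34, 1.26, 2.80 and 3.68 CPM with LPS, where only the highest LPS and the lowest PBS library met. Its log2 fold changes were −1.23 (SE 0.29, adjusted p = 0.00181) and −1.02 (SE 0.27, adjusted p = 0.00481). H2ac25 shares exonic bases with Trim17 on the same strand. H2ac7, a low gene of the second chromosome 13 group, went from 1.92 to 0.733 CPM in WT and from 1.88 to 0.497 CPM in KO, with log2 fold changes of −1.38 (adjusted p = 0.0109) and −1.93 (adjusted p = 0.000637). H2ac15 was called in KO, at −0.70 (SE 0.25, adjusted p = 0.0297), but the call was lost when any of 5 libraries was left out (adjusted p = 0.0603 to 0.0748). Those libraries were KO PBS replicates 1 and 2 and KO LPS replicates 2, 4 and 5. The H2ac15 call was lost too without the count filter, with only the compared groups and with a replicate block. Leaving out the 3 libraries that stood apart ended it as well.

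H2ac20 held 41.5% of the H2A signal and gave no call. It had 13.03, 10.5, 10.4 and 13.5 CPM in WT PBS and 14.7, 10.8, 10.2, 11.2 and 12.7 CPM in WT LPS, which overlapped over nearly their whole range. In KO it had 12.5, 14.2, 9.09, 11.9 and 12.3 CPM with PBS and 8.21, 9.94, 9.69, 10.1 and 10.5 CPM with LPS. The log2 fold change was 0.01 (SE 0.15, adjusted p = 0.973) in WT and −0.31 (SE 0.15, adjusted p = 0.0922) in KO.

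Of 14 tested H2B genes 6 (42.9%) fell in each genotype, against 17.4% and 19% of all tested genes, the largest number of any class. By share the H1 class was higher, with 3 of 5 (60%) in each genotype. H2bc8 had 15.9, 11.2, 16.1 and 13.2 CPM in WT PBS and 8.35, 6.25, 7.23, 7.54 and 8.10 CPM in WT LPS. In KO it had 15.5, 15.7, 12.5, 14.2 and 13.2 CPM with PBS and 5.40, 6.29, 6.16, 7.27 and 3.61 CPM with LPS. LPS libraries lay below all PBS libraries, at log2 fold changes of −0.91 (SE 0.18, adjusted p = 0.000356) and −1.30 (SE 0.17, adjusted p = 4.13e-06). H2bc6 fell from 15.3 ± 1.20 to 9.29 ± 0.803 CPM in WT and from 14.8 ± 1.96 to 8.07 ± 1.23 CPM in KO (adjusted p = 0.000354 and 2.63e-05). H2bc4 fell from 13.8 ± 1.51 to 8.66 ± 1.24 CPM and from 14.2 ± 1.52 to 7.64 ± 2.05 CPM (adjusted p = 0.00512 and 0.000277). H2bc21, in which no stem-loop was found and which is named after its values were seen, fell by 1.20 and 1.35 on the log2 scale (adjusted p = 0.0021 and 0.000406). H2bc27 was near the detection limit, with 0.73, 1.09, 0.788 and 0.807 CPM in WT PBS and 0.358, 0.395, 0, 0 and 0.171 CPM in WT LPS. Its call in WT (adjusted p = 0.0448) was lost when any of 7 libraries was left out (adjusted p = 0.0601 to 0.0976), and its call in KO (adjusted p = 0.0249) without KO PBS replicate 1, KO LPS replicate 2 or KO LPS replicate 3 (adjusted p = 0.0561 to 0.0624). The WT call was also lost without the count filter, with a replicate block and without the 3 libraries that stood apart.

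**Figure D2:**
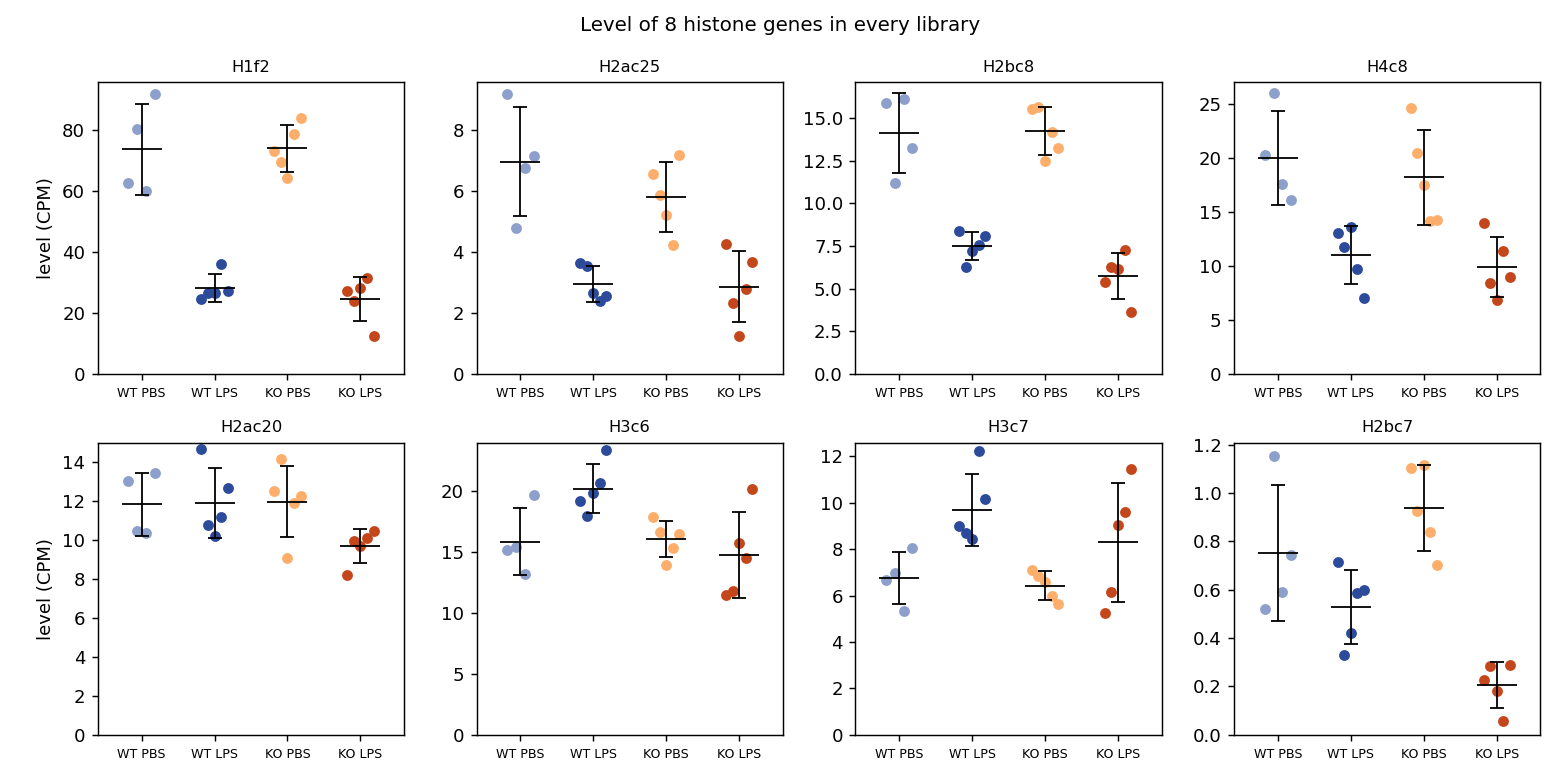
Level of 8 members (y axis, CPM) in each of the 19 libraries by group; points are libraries and bars are group means ± SD. H1f2 and H2bc8 separated PBS from LPS libraries in both genotypes, H2ac20 and H3c6 overlapped between treatments, and H2bc7 was low in the 5 KO LPS libraries (0.0559 to 0.289 CPM).

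H4 genes, of which 11 were tested, gave 3 members (27.3%) that fell in each genotype, against 17.4% and 19% of all tested genes. H4c8 was the H4 gene with the highest level per kb, and by CPM with PBS, while H4c4 had more CPM with LPS. H4c8 had 20.2, 26.0, 17.6 and 16.1 CPM in WT PBS and 13.1, 11.7, 13.5, 9.75 and 6.99 CPM in WT LPS. In KO it had 24.6, 20.5, 17.5, 14.1 and 14.3 CPM with PBS and 13.9, 8.46, 6.82, 11.4 and 8.95 CPM with LPS. The groups did not overlap, although in KO they came within 1 CPM of each other, and the log2 fold changes were −0.86 (SE 0.23, adjusted p = 0.00593) and −0.87 (SE 0.22, adjusted p = 0.0032). H4c14 was called lower in WT (−0.69, adjusted p = 0.0213) and in KO (−0.55, adjusted p = 0.048). The WT call was lost without WT PBS replicate 2, WT LPS replicate 4 or WT LPS replicate 5 (adjusted p = 0.053 to 0.118). The KO call was lost when any of 8 of the 10 libraries was left out (adjusted p = 0.0512 to 0.142), all but KO PBS replicate 4 and KO LPS replicate 1. It was also lost without the count filter, with DESeq2 size factors and with only the compared groups. Removal of ribosomal and mitochondrial genes or of the 3 libraries that stood apart ended it as well. H4c4 had 16.6 ± 0.583 CPM in WT PBS and 13.2 ± 2.47 CPM in WT LPS, and 15.8 ± 1.46 and 11.8 ± 2.22 CPM in KO, which did not meet both thresholds (adjusted p = 0.0978 and 0.0256 with log2 fold changes of −0.33 and −0.42). Without KO LPS replicate 3 its KO value was −0.51 (adjusted p = 0.00694), which would be a call.

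H3c6 and H3c7, a pair of near-identical H3 genes, gave no call by edgeR with all libraries. H3c6, the H3 gene with the highest level by CPM and by CPM per kb, had 15.1, 15.4, 13.1 and 19.6 CPM in WT PBS and 19.1, 17.9, 19.8, 20.6 and 23.3 CPM in WT LPS. In KO it had 17.9, 16.6, 13.9, 15.3 and 16.5 CPM with PBS and 11.4, 11.8, 15.7, 14.5 and 20.1 CPM with LPS. The WT LPS libraries lay high but overlapped WT PBS replicate 4, and the log2 fold changes were 0.35 (SE 0.16, adjusted p = 0.0964) and −0.13 (SE 0.15, adjusted p = 0.542). H3c7, which shares its stem-loop with H3c6 and 98.8% of its coding bases, had 6.67, 6.97, 5.32 and 8.07 CPM in WT PBS and 9.01, 8.68, 8.43, 12.2 and 10.1 CPM in WT LPS. Its WT groups did not overlap, LPS being higher, but the test missed the threshold (log2 fold change 0.52, SE 0.21, adjusted p = 0.0567). H3c7 was called higher in WT by DESeq2 (log2 fold change 0.50, adjusted p = 0.0389), without ribosomal and mitochondrial genes (0.54, adjusted p = 0.0485), without WT PBS replicate 4 (0.64, adjusted p = 0.0397) and without the 3 libraries that stood apart (0.55, adjusted p = 0.0382). It was called higher in KO when KO LPS replicate 1 was left out (adjusted p = 0.0285). Only 40.6% and 58% of the 75-base stretches of H3c6 and H3c7 were unique, and the values of both genes are uncertain to that extent.

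H3c1 (14.4 ± 1.95 CPM per kb in WT and 10.96 ± 2.80 in KO, SD) and H3c13 (13.1 ± 1.47 and 13.8 ± 1.38) lay above H3c7 (5.36 ± 0.898 and 5.10 ± 0.492) with PBS, and both gave calls. In KO LPS libraries H3c13 (6.37 ± 1.75) and H3c7 (6.59 ± 2.03) did not differ beyond their spread. H3c1 had 8.81, 6.30, 7.69 and 7.95 CPM in WT PBS and 5.25, 5.59, 4.58, 3.58 and 4.78 CPM in WT LPS, and fell by 0.69 on the log2 scale (SE 0.22, adjusted p = 0.0148). In KO its log2 fold change was −0.48 (SE 0.21, adjusted p = 0.065), and without KO LPS replicate 5 it was −0.62 (adjusted p = 0.0194), which would be a call. H3c13, named after its values were seen, fell in both genotypes, by 0.56 (adjusted p = 0.0389) in WT and by 1.12 (adjusted p = 0.00014) in KO. In all, 2 of 10 tested H3 genes were called lower in WT and 1 in KO, which is near the 17.4% of all tested genes in WT and below the 19% in KO, and the median log2 fold change of the class was 0.02 in WT and −0.36 in KO.

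Calls after LPS were largely shared between genotypes, at a share below that of all tested genes for the WT calls and near it for the KO calls. Both comparisons called 13 members lower, which is 76.5% of the WT calls and 81.3% of the KO calls. Among all tested genes 2887 were called lower in both, which is 88.4% of the WT calls and 81.0% of the KO calls. The 13 were H1f2, H1f3, H1f4, H2ac7, H2ac25, H2bc4, H2bc6, H2bc8, H2bc21, H2bc27, H3c13, H4c8 and H4c14. H2ac6, H2bc26, H3c1 and H4c18 were called in WT alone and H2ac15, H2bc7 and H4c9 in KO alone. Of these 7, H2bc7 had an unadjusted p under 0.05 in the test of the difference between the LPS effects, and the other 6 did not. For H4c9 the log2 fold change was −0.53 (adjusted p = 0.11) in WT and −0.91 (adjusted p = 0.00527) in KO.

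**Figure D3:**
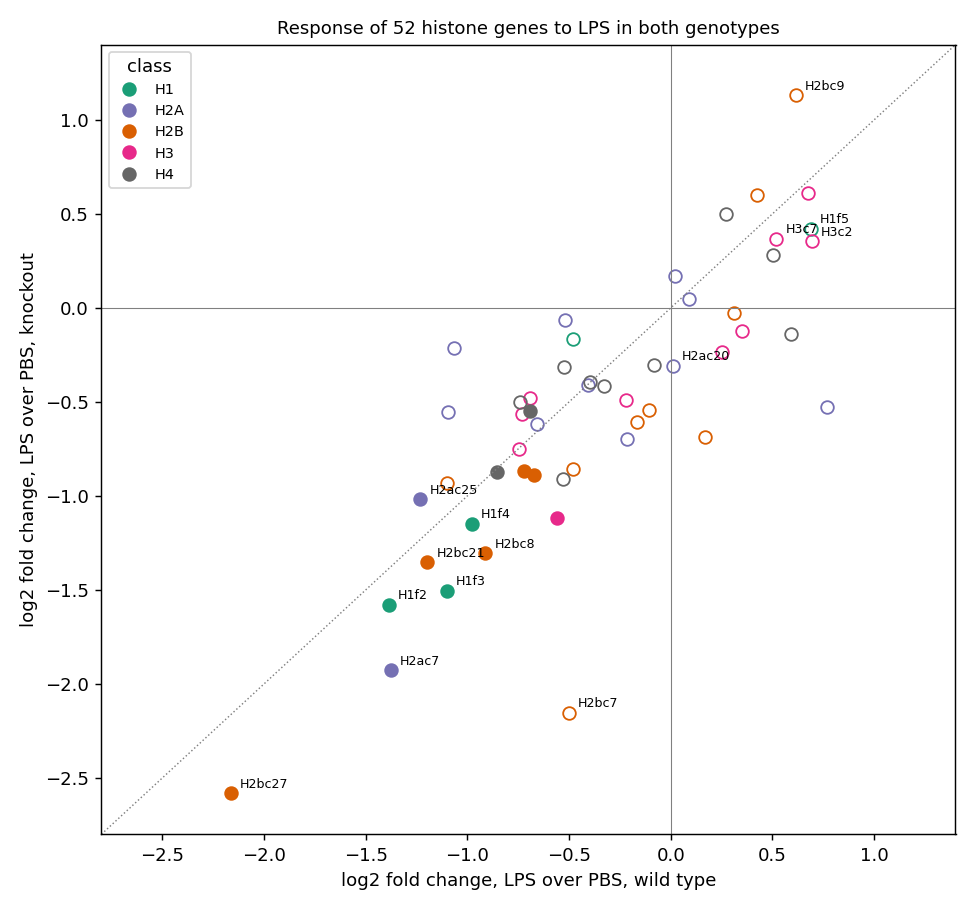
Log2 fold change of LPS against PBS in WT (x axis) and in KO (y axis) for the 52 tested members, coloured by class; filled points were called lower in both genotypes and the dotted diagonal marks equal values. The H1 genes H1f2, H1f3 and H1f4 sit between −0.98 and −1.58 on both axes, and most points lie below 0 on both.

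By position, with 17.4% of all tested genes called lower in WT and 19% in KO, all 3 genes of the chromosome 11 group fell in WT and 2 of 3 in KO. In the first chromosome 13 group 1 of 14 tested genes fell in WT and 2 in KO, in the second group 10 and 9 of 27, and on chromosome 3 3 and 3 of 7. By uniqueness, 14 of the 33 tested members with at least 50% unique stretches fell in WT (42.4%) and 13 in KO (39.4%), against 3 and 3 of the 19 members below that (15.8%). The shares of the less unique members and of the first chromosome 13 group (7.14% and 14.3%) lay below those of all tested genes. These splits were not tested.

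Members annotated well beyond the stem-loop held most of the summed CPM. Their summed LPS to PBS ratio was lower than that of members annotated only up to 100 bases beyond it. This split, at 100 exonic bases past the stem-loop, was chosen after the values were seen and is given as a description. Of 24 genes that exceeded it, 22 were tested, with H1f2 (840 bases past), H1f4 (1153), H1f3 (4884), H2bc6 (2919) and H4c14 (1257) among them. Together the 24 held 73.1% of the summed CPM of the members. This share is not divided by exon length, and long annotated exons can raise it. In this set 10 members (45.5%) fell in WT and 10 in KO, the median log2 fold changes were −0.68 and −0.65, and the summed CPM after LPS was 0.619 and 0.553 of that with PBS. The H1 genes weigh on this sum. In WT the set had 288 CPM with PBS and 178 with LPS, of which H1f2 gave 73.6 and 28.2 and H1f4 40.4 and 20.5. In KO the set had 267 and 148 CPM, H1f2 73.9 and 24.7 and H1f4 36.4 and 16.4. The ratio without the H1 genes was not taken. Of 38 genes that ended within 100 bases of the stem-loop, 28 were tested, and 6 (21.4%) fell in WT and 5 (17.9%) in KO, shares near those of all tested genes called lower, 17.4% and 19%. Their median log2 fold changes were −0.19 and −0.36 and their summed level with LPS was 0.817 and 0.731 of that with PBS. The 5 members in which no stem-loop was found held 1.74% of the signal, and their summed level with LPS was 0.474 and 0.451 of that with PBS. Over the 50 tested members with a stem-loop the Spearman correlation of the log2 fold change with the number of bases past it was −0.36 in WT and −0.27 in KO. The number of bases past the stem-loop also went with the level of the gene (Spearman 0.54), while the level and the log2 fold change had correlations of −0.17 and −0.11. The counts cannot show where within a gene the reads lay.

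**Figure D4:**
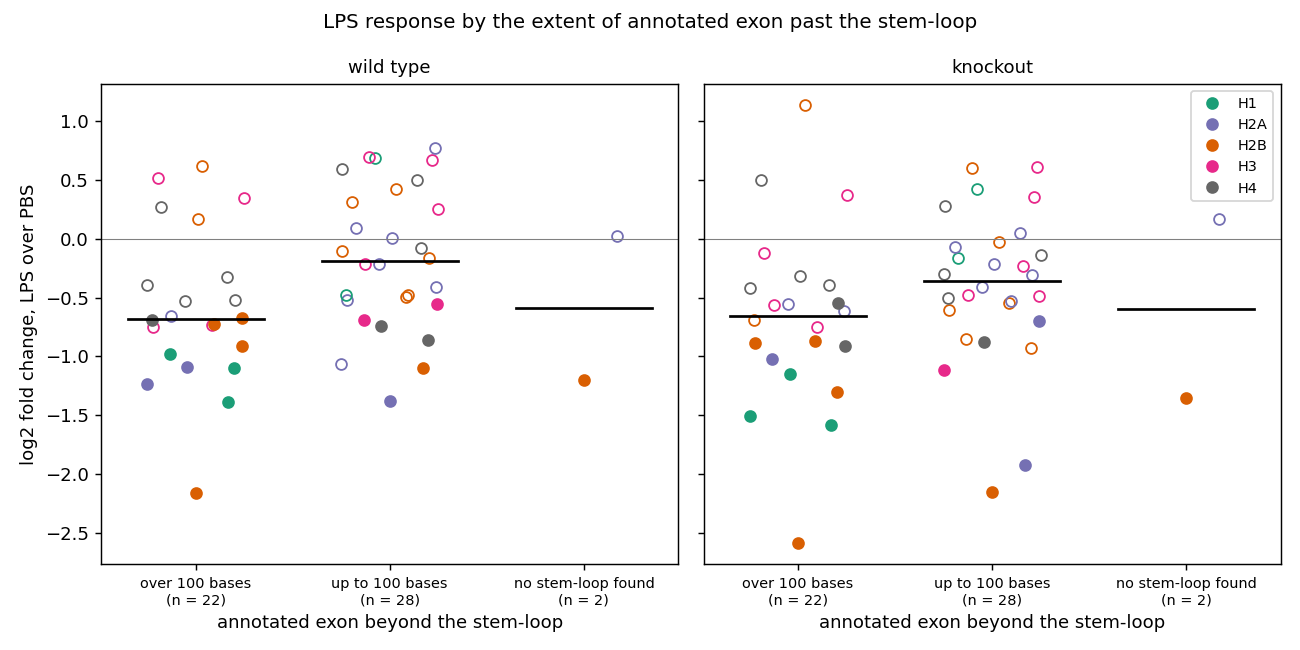
Log2 fold change of LPS against PBS (y axis) of the tested members, in WT and in KO, split by whether the annotated exons run over or up to 100 bases past the stem-loop, with the 2 tested members in which no stem-loop was found apart, coloured by class; filled points were called lower and black bars are medians. The medians were −0.68 and −0.65 for the genes with long ends and −0.19 and −0.36 for those with short ends, and both sets spread widely.

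A poly(A) signal, AATAAA or ATTAAA, lay in the last 40 bases of the main annotated transcript of 16 members (23.9%), against 67.7% of 21703 other protein-coding genes. These were 1 H1 gene, 2 H2A, 6 H2B, 1 H3 and 6 H4 genes, and 11 of them were tested. After LPS 7 of the 11 fell in WT and 8 in KO, with median log2 fold changes of −0.72 and −0.87, where 17.4% and 19% of all tested genes were called lower. Of the 41 tested members without the signal 10 (24.4%) fell in WT and 8 (19.5%) in KO, the latter share being near that of all genes, with medians of −0.22 and −0.42. This grouping was also chosen with values known. H1f2, H4c8 and H2bc6 have the signal, whereas H1f4, H1f3 and H2bc8 do not.

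Marker genes of several cell types also changed after LPS, and marker RNA does not tell a change in cell numbers from a change within the cells. All 9 matched microglial markers were called lower in both genotypes, with summed levels of 25267 to 39716 CPM in WT PBS, 10565 to 17005 in WT LPS, 26763 to 40571 in KO PBS and 10926 to 16955 in KO LPS. The sum of 4 monocyte markers was 21.7 to 36.5 CPM in WT PBS and 170 to 302 in WT LPS, and 17.2 to 49.0 and 98.5 to 226 in KO. The sum of 6 neutrophil markers was 30.2 to 57.4 and 111 to 334 CPM in WT, and 12.6 to 97.3 and 83.0 to 337 in KO. Of 4 markers of border-associated macrophages 2 were called lower in each genotype, and of 5 endothelial markers 2 were called lower in each and 1 higher in KO. Of 6 markers of immature neutrophils and bone marrow 0 were called in WT and 1 was lower in KO. No oligodendrocyte marker was called, and their sum ran from 529 to 11350 CPM over the libraries. KO LPS replicate 1, one of the libraries that stood apart, had the highest sums of its group for oligodendrocyte (11350 CPM), astrocyte (4237) and neuron markers (99.2). KO LPS replicate 5 had the lowest sums of its group for astrocyte (186), neuron (18.05) and endothelial markers (37.4). WT PBS replicate 1 had the lowest sums of its group for oligodendrocyte (1010), astrocyte (511), neuron (12.2) and endothelial markers (238). Of 5 astrocyte markers 1 was called higher in each genotype, and of 5 neuron markers 1 was higher and 1 lower in WT and 1 higher in KO. The part of these markers' cells in the histone values was not tested. The sum of 4 lymphocyte markers stayed at or below 1.14 CPM in every library.

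After LPS the KO libraries tended to lower levels of the members than the WT libraries. The summed CPM was 211 ± 17.9 in KO LPS and 253 ± 11.96 in WT LPS, a ratio of 0.833, and the highest KO library (236) was below the lowest WT library (240). The ratio was 0.856 for H1, 0.850 for H2A, 0.834 for H2B, 0.779 for H3 and 0.843 for H4, and for H4 it was about as low with PBS (0.8289). Of the 52 tested members 45 (86.5%) had a fitted log2 fold change below 0, against 46.7% of all tested genes, and the median was −0.30. These members share libraries and are not independent of each other. Of the marker lists, the sum of the 4 monocyte markers had a median of 124 CPM in KO LPS and 223 in WT LPS, with overlapping libraries. The sum of 5 erythroid markers ran from 0.144 to 2.14 CPM in KO LPS and from 0.0596 to 44.1 in WT LPS, and the 1 of them that could be tested was lower in KO by the unadjusted call. No other marker was called between genotypes after LPS. The part of these markers' cells in the genotype difference was not tested.

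By the call used for genotype, an unadjusted p under 0.05 with an absolute log2 fold change of at least 0.5, 6 members were lower in KO and none higher. Among all tested genes 0.763% were lower and 0.544% higher by this rule. No member passed at an adjusted p under 0.05 by edgeR or by DESeq2, where 2 genes in all (0.0107%) did so by edgeR. An unadjusted p under 0.05 without a fold minimum was reached by 10 members with edgeR and 9 with DESeq2, against 2.57% and 2.8% of all genes. All 10 were lower in KO with edgeR, where 1.37% of all genes were. DESeq2 gave 5 calls lower and 0 higher, against 0.806% and 0.726% of all genes. The 6 called members were H2ac10, H2bc3, H2bc7, H2bc11, H2bc13 and H4c9, all of low or moderate level. Without WT LPS replicate 3 the count was 3, and without the 3 libraries that stood apart it was 7. In the latter setting H2bc3, H2bc11 and H2bc13 lost their calls, so that other members make up part of the 7.

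H2bc7, an H2B gene next to H2bc8 and H2ac7, differed most. Its level was 0.716, 0.329, 0.422, 0.585 and 0.597 CPM in WT LPS and 0.225, 0.286, 0.179, 0.0559 and 0.289 CPM in KO LPS. With PBS it was 0.521, 1.15, 0.591 and 0.745 CPM in WT and 1.10, 0.924, 1.12, 0.838 and 0.702 CPM in KO. The genotypes did not overlap after LPS and overlapped with PBS. The log2 fold change of KO against WT after LPS was −1.34 (SE 0.39, unadjusted p = 0.00267, adjusted p = 1.00). KO LPS libraries held 1 to 5 counts of this gene, where 3 counts correspond to between 0.168 and 0.217 CPM, and 41.1% of its 75-base stretches are unique.

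H4c9 was the other member whose libraries did not overlap between genotypes after LPS, where 0.16% of all genes had KO libraries below all WT libraries. It had 5.07, 3.88, 3.73, 4.81 and 4.09 CPM in WT LPS and 2.92, 2.57, 1.08, 3.58 and 3.25 CPM in KO LPS. The log2 fold change was −0.69 (SE 0.25, unadjusted p = 0.0126, adjusted p = 1.00), and without KO LPS replicate 3 it was −0.49, short of the fold minimum. H2ac10 had 0.596, 1.12, 1.39, 0.585 and 0.767 CPM in WT LPS and 0.169, 0.0572, 0.419, 0.727 and 0.577 CPM in KO LPS, which overlapped. Its unadjusted p was 0.0137, and 0.0505 without WT LPS replicate 3. H2bc13 (unadjusted p = 0.0213) lost its call without WT LPS replicate 4 (0.0523). H2bc11 (unadjusted p = 0.0287) lost it without WT LPS replicate 3, KO LPS replicate 2 or KO LPS replicate 5 (0.0604 to 0.093). H2bc3 (unadjusted p = 0.0491) lost it without any of WT LPS replicates 3 and 4 and KO LPS replicates 1, 2 and 4 (0.0547 to 0.142). The H2bc3 call was also lost without the count filter, with DESeq2 or its size factors, and with only the compared groups. A replicate block or the removal of ribosomal and mitochondrial genes ended it as well.

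**Figure D5:**
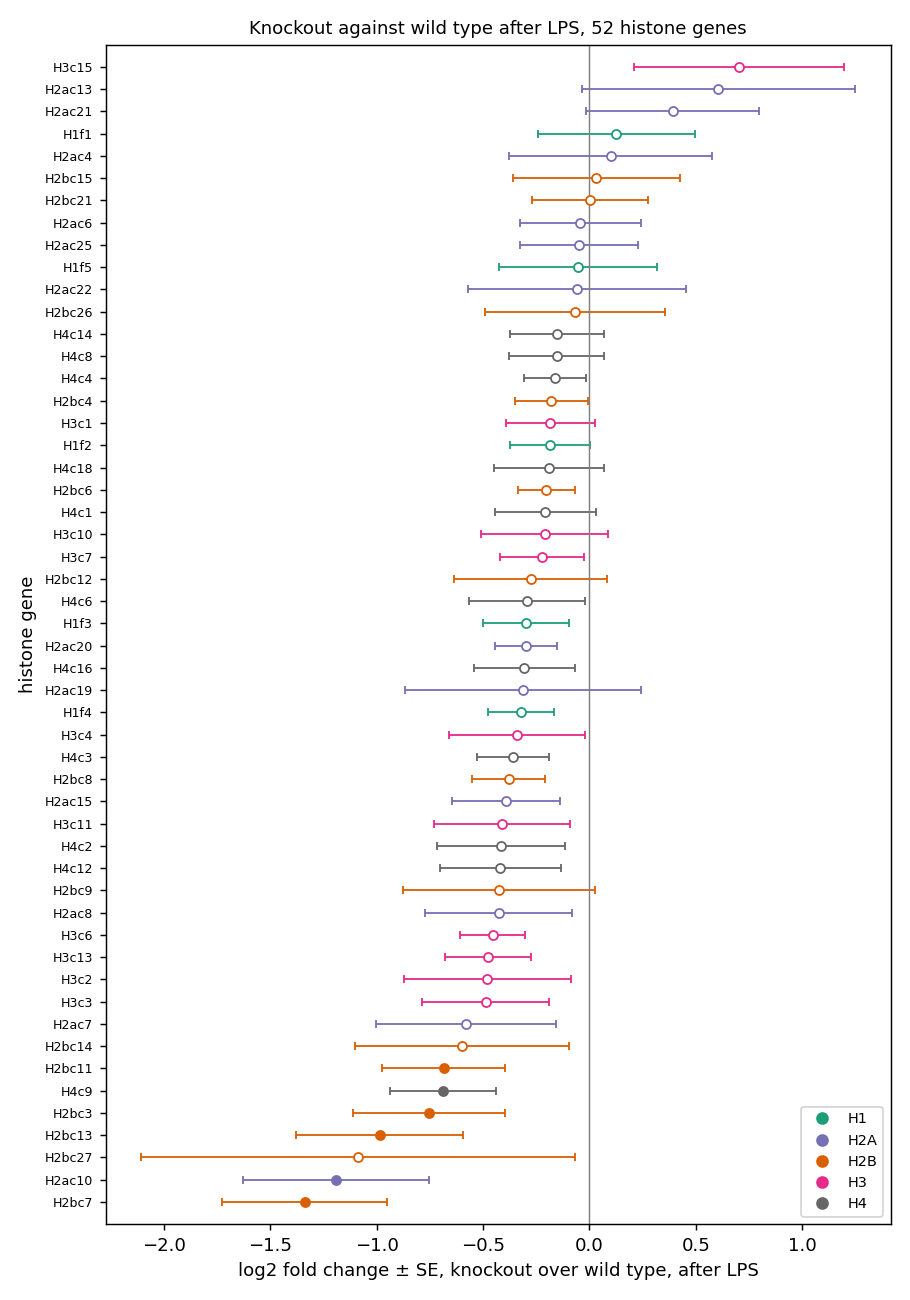
Log2 fold change of KO against WT after LPS (x axis) with its standard error for the 52 tested members, ordered by value and coloured by class; filled points were lower by the unadjusted call. The points run from −1.34 (H2bc7) to 0.70, 45 of them lie below 0, and none passed after adjustment over all tested genes.

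With PBS no member passed the same call, though most fitted values were below 0. No member was lower or higher in KO by edgeR, 0 had an unadjusted p under 0.05 (1.04% of all genes did), and DESeq2 called 2 lower (H4c16 and H2ac6, against 0.758% of all genes), none of them at an adjusted p under 0.05. Among all tested genes 0.576% were lower and 0.224% higher. Leaving out KO PBS replicate 1 gave 4 members lower in KO, and leaving out the 3 libraries that stood apart gave 1, H2bc9. The summed CPM was 356 ± 30.3 in KO and 383 ± 37.2 in WT, a ratio of 0.931, and the libraries overlapped. The ratio was 0.981 for H1, 0.922 for H2A, 0.989 for H2B, 0.948 for H3 and 0.8289 for H4. The H4 sum was 87.6 ± 13.6 CPM in KO and 106 ± 7.24 in WT, with overlapping libraries, and 10 of 11 H4 genes had a fitted log2 fold change below 0 (median −0.30). Of all 52 members 33 (63.5%) were below 0, against 49.3% of all tested genes, and the median was −0.15. In 2 members the libraries did not overlap and KO was the lower group, against 0.544% of all genes. H4c16 had 15.9, 14.5, 12.9 and 12.9 CPM in WT PBS and 11.3, 12.5, 6.96, 9.27 and 9.24 CPM in KO PBS, and missed the threshold at a log2 fold change of −0.51 (SE 0.25, unadjusted p = 0.0533). H2ac6 had 3.597, 3.76, 3.48 and 3.73 CPM in WT PBS and 2.88, 2.36, 1.78, 1.99 and 3.13 CPM in KO PBS, at −0.58 (SE 0.29, unadjusted p = 0.0569).

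The LPS effect itself was compared between genotypes by the interaction term. No member had an adjusted p under 0.05 by edgeR or DESeq2, and none of all tested genes did (0%). At an unadjusted p under 0.05 edgeR gave 2 members and DESeq2 gave 3, where 0.961% of all genes passed with edgeR and 1.19% with DESeq2. H2bc7 had an interaction of −1.65 on the log2 scale (SE 0.52, unadjusted p = 0.00494, adjusted p = 1.00), its level with LPS being lower relative to PBS in KO than in WT. H3c6 had −0.47 (SE 0.22, unadjusted p = 0.0473, adjusted p = 1.00), from a log2 fold change of 0.35 in WT and −0.13 in KO.

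Of 26 tested genes for histone RNA transcription, 3′ end processing and decay, 5 (19.2%) rose and 4 (15.4%) fell after LPS in WT, and 4 (15.4%) rose and 2 (7.69%) fell in KO. Among all tested genes 18.4% rose and 17.4% fell in WT and 20.1% and 19% in KO, so that these shares lay near or below the background. Slbp, the stem-loop binding protein, had 31.4 ± 3.77 and 34.0 ± 4.86 CPM in WT and 30.6 ± 3.57 and 35.7 ± 8.64 CPM in KO, which did not pass (adjusted p = 0.605 and 0.243). Npat, the transcriptional coactivator of histone genes, had log2 fold changes of −0.14 and −0.08 (adjusted p = 0.37 and 0.557). Upf1, a helicase required for histone mRNA decay, rose by 0.84 and 0.85 on the log2 scale (adjusted p = 5.27e-06 and 1.65e-06), from 151 ± 16.5 to 271 ± 29.1 CPM in WT. Cstf2, a cleavage stimulation factor, rose by 0.78 and 0.74 (adjusted p = 6.86e-06 and 4.35e-06), and Mtbp by 0.73 and 1.06 (adjusted p = 0.00372 and 6.14e-05). Tut4, a terminal uridylyltransferase, fell by 0.89 and 0.98 (adjusted p = 2.96e-06 and 4.58e-07). E2f1, a cell cycle transcription factor, fell by 1.29 and 1.07 (adjusted p = 0.00365 and 0.00803).

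The replication-independent histone genes, which are expressed outside S phase, were called in both directions. Of 11 tested 3 rose and 3 fell in WT (27.3% each), and 2 rose (18.2%) and 3 fell in KO, against the same background. H3f3b, which encodes the replacement histone H3.3, rose from 316 ± 13.02 to 560 ± 104 CPM in WT and from 305 ± 16.9 to 583 ± 105 CPM in KO (adjusted p = 9.31e-05 and 9.09e-06). H2ax, a variant whose phosphorylation marks DNA breaks and whose gene holds the stem-loop too, rose by 1.14 and 1.35 on the log2 scale (adjusted p = 2.72e-05 and 1.39e-06). H2az2, an H2A.Z gene, fell by 1.55 and 1.74 (adjusted p = 6.54e-05 and 9.39e-06). H1f0, the linker histone of non-dividing cells, fell by 0.98 and 0.92 (adjusted p = 0.000406 and 0.000379), in the same direction as H1f2, H1f3 and H1f4. Cenpa, the centromeric H3 variant, fell by 1.03 and 0.92 (adjusted p = 0.00516 and 0.00702).

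Of 35 tested genes of proliferation and DNA replication, 5 (14.3%) rose and 6 (17.1%) fell in WT, and 7 rose and 7 fell in KO. These shares were close to those of all tested genes. Mki67, a marker of cycling cells, had 7.53 ± 1.29 and 12.4 ± 2.28 CPM in WT and 7.13 ± 2.00 and 11.6 ± 5.07 CPM in KO (adjusted p = 0.0454 and 0.0341). Both Mki67 calls were weak, being lost when any of 8 of the 9 libraries was left out in WT (adjusted p = 0.0567 to 0.129) and any of 6 of 10 in KO (0.0638 to 0.136). Top2a, a topoisomerase of dividing cells, rose by 0.68 in WT (adjusted p = 0.0013) and had 0.25 in KO (adjusted p = 0.176). Pcna, the replication clamp, had 0.17 in WT (adjusted p = 0.517) and rose by 0.58 in KO (adjusted p = 0.0114), but to 0.31 without KO LPS replicate 5. Uhrf1 rose by 0.98 and 1.11 (adjusted p = 0.00428 and 0.000746) and Cdt1, a replication licensing factor, by 0.74 and 0.62 (adjusted p = 0.0111 and 0.0183). The KO value of Cdt1 was 0.39 (adjusted p = 0.0774) without KO LPS replicate 5. Mcm2, a subunit of the replicative helicase, fell by 0.79 and 0.84 (adjusted p = 0.00633 and 0.00239) and Cenpf by 1.04 and 1.42 (adjusted p = 0.00575 and 0.000241).

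Histone chaperones, which carry histones to and from DNA, were called higher more often than lower. Of 20 tested 8 rose and 3 fell in WT, and 10 rose and 4 fell in KO, where 18.4% and 20.1% of all tested genes rose, with 8 higher and 3 lower in both. Ipo4, an importin that carries H3 and H4, rose by 2.09 and 1.93 on the log2 scale (adjusted p = 2.92e-08 and 1.59e-08). Daxx, an H3.3 chaperone, rose by 1.67 and 1.52 (adjusted p = 7.17e-07 and 6.31e-07), and Hat1, which acetylates new H4, by 0.99 and 0.95 (adjusted p = 1.16e-05 and 6.08e-06). Tonsl and Mms22l, partners that bind new histones at replication forks, fell by 0.83 and 0.54 (adjusted p = 0.00442 and 0.0369) and by 0.82 and 1.01 (adjusted p = 0.0206 and 0.0033). The chaperone Dnajc9 fell by 0.63 and 0.75 (adjusted p = 0.0469 and 0.0124). Leaving out single libraries ended the WT calls of Dnajc9 (7 of 9 libraries, adjusted p = 0.0542 to 0.127) and Mms22l (4 of 9, 0.0521 to 0.0626) and the KO call of Tonsl (6 of 10, 0.052 to 0.0924). Between genotypes no gene of the first pair of lists was called in either treatment. After LPS the proliferation list had 1 gene higher and 1 lower in KO and the chaperone list 1 higher and 0 lower, by the unadjusted call.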

How the data were processed

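Gene counts of 19 mouse CD11b+ brain cell libraries were analysed. The libraries were stranded total RNA, depleted of ribosomal RNA, and each came from a separate mouse. The deposited values are raw read counts per gene, made by the authors with STAR 2.7.9a after adapter trimming. The strand setting of the counting and the treatment of reads with several placements are not given in the sources used here. The table has 56980 rows, of which 56236 were named by the GENCODE M39 annotation of GRCm39, used here for names, positions and stem-loops.

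Groups were taken from the sample labels. All 19 libraries in 4 groups were fitted together with edgeR 4.0.16 in R 4.3.3, using filterByExpr (minimum count 10, minimum total 15), TMM normalisation and quasi-likelihood tests, with Benjamini-Hochberg adjustment over the 18739 tested genes. CPM divide counts by TMM-scaled library sizes. Fold changes are KO against WT or LPS against PBS on the log2 scale. After LPS against PBS a call needed an adjusted p under 0.05 and an absolute log2 fold change of at least 0.5. For KO against WT the study's rule of an unadjusted p under 0.05 with the same fold was used. The interaction was called at an adjusted p under 0.05. Exact permutation tests of single named genes used the libraries that chose those genes and are not reported.

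Stem-loops were searched within 100 bases after the stop codon, requiring an arm of 2 G, 3 pyrimidines and T, a loop of 4 bases, and a second arm pairing at every base (G with T allowed). Promoter windows were those of RefSeq. The script was tested on simulated counts.

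The members and lists were chosen with earlier results of these data known. Named with values were the 3 members of each class with the highest mean CPM, the 3 called members per direction with the largest change and groups that did not overlap in each LPS comparison, every member called between genotypes, Slbp, Npat, Mki67, Top2a and Pcna, and per list and direction the 3 genes of largest change called in both LPS comparisons. Of the lists, 26 of 27, 16 of 19, 35 of 35 and 20 of 20 genes matched a row (RNA processing, replication-independent histones, proliferation, chaperones), and E2f1, Ccne1 and Ccne2 stand in more than 1 list. Any other member named in the text was named after its values were seen. Alternatives were no count filter, DESeq2 1.42.0 and its size factors, only the compared groups, a replicate block, removal of ribosomal and mitochondrial genes, adjusted p alone, and each library left out. Counts of 11936364 to 22788884 per library put 3 counts at 0.139 to 0.256 CPM. No library pair agreed within sampling noise (lowest chi-square per degree of freedom 7.04).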

Additional observations from a re-analysis of the deposited data

Results flagged for a closer look

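Of 116 sets of 4 or 5 libraries checked, 4 held a library far from the others, and chance gives about 1 in 20. H1f2 was 36.1 CPM in WT LPS replicate 4, with the other libraries between 24.6 and 27.1. H4c14 was 20.5 CPM in WT PBS replicate 2, with the others between 13.3 and 14.0, and its WT call after LPS was lost without that library. H3c1 was 8.47 CPM in KO PBS replicate 1, with the others between 4.67 and 5.46. H2bc13 was 2.36 CPM in WT PBS replicate 3, with the others between 0.782 and 1.03. The causes were not tested.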

How the results depend on the processing

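The counts of members called lower after LPS stayed within 1.5 times under the alternatives run, at 13 to 18 against 17 in WT and 13 to 17 against 16 in KO, and at 12 to 18 and 13 to 18 with single libraries left out. The count called higher was 0 in both. In WT it became 1 with DESeq2, 1 without ribosomal and mitochondrial genes, 2 without the 3 libraries that stood apart (an alternative chosen after seeing the data) and 0 to 1 with single libraries left out. In KO it became 1 with DESeq2 and 0 to 3 with single libraries left out, 3 being without KO LPS replicate 1. The 6 members lower in KO after LPS became 3 with only the compared groups, 0 by adjusted p, and 3 to 9 with single libraries left out, the extremes being without WT LPS replicate 3 and without KO LPS replicate 5. The 0 members lower in KO with PBS became 1 without the count filter, 1 with DESeq2 size factors, 2 with DESeq2, 3 with only the compared groups, 1 without the 3 libraries, and 0 to 4 with single libraries left out, 4 being without KO PBS replicate 1. The causes were not tested. The deviations of same-numbered libraries from their group means had correlations of −0.042 to 0.58 between treatments in WT and 0.027 to 0.54 in KO, positive in 8 of 9 pairs, and of −0.57 to 0.30 between genotypes. In each comparison some pair was at or below 0.1, and the numbers were not taken to pair the mice. With a replicate block 14 members were lower after LPS in WT, 16 in KO, 5 were lower in KO after LPS and 3 with PBS.

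Of 1680 repeats of 102 single-gene values 1552 kept direction and side of the threshold, 106 lost a call, 9 gained one and 13 changed sign. H2ac20 in WT was −0.028 without the count filter, −0.017 with DESeq2 size factors, −0.019 with DESeq2, −0.030 with only the compared groups, −0.012 with the block and −0.078 to 0.098 with single libraries left out. H2bc11 in WT was 0.014 with the block and −0.30 to 0.18 with single libraries left out. H2bc13 in WT spanned −0.66 to 0.0055 and Npat in KO −0.14 to 0.0083, with single libraries left out. None of these was a call. Depth limits the low members: those under about 1 CPM rest on few counts per library.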
